A study of Mus musculus with 2 samples.

Results

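Membrane-associated antiviral proteins and their viperin-type partners were followed as a group of 10 genes: Bst2, Ifitm1, Ifitm2, Ifitm3, Ifitm6, Ifi27l2a, Rsad2, Cmpk2, Ifi44 and Rtp4. They were taken by gene symbol from the 32432 genes counted in the deposited matrices, and all 10 had unique molecular identifiers (UMIs, each marking 1 captured transcript) in both genotypes. The symbols were chosen by function and not by their values in these samples, although earlier results of the same data were known when the group was drawn up.

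Interferons of the type I family act through a cell-surface receptor and STAT transcription factors, which switch on a large set of genes whose products interfere with virus entry, replication and release. Tetherin (Bst2) holds budding particles at the cell surface, the IFITM proteins sit in plasma and endosomal membranes and hinder membrane fusion, and viperin (Rsad2), which acts at the endoplasmic reticulum and at lipid droplets, makes a chain-terminating nucleotide whose phosphorylated substrate is supplied by the neighbouring gene Cmpk2. TREX1 is a DNA exonuclease that degrades cytosolic DNA, and its loss is known to activate the cGAS-STING pathway, which induces type I interferon.

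The animals were male mice aged 8 to 12 weeks that carried 1000 B16-F10 cells, an established mouse melanoma line, injected in Matrigel into the skin of both legs. Trex1 iKO mice were Trex1 fl/fl-R26CreERT2-ki/wt and Trex1 control mice were Trex1 wt/fl-R26CreERT2-ki/wt, so the controls carried 1 floxed allele, the same tamoxifen-inducible Cre expressed from the ubiquitously active Rosa26 locus, and the same tamoxifen course of 1 mg on each of 3 days from day 5. Tumours were collected on day 14 and live CD45+ cells were sorted after magnetic enrichment, then loaded for droplet 3' RNA sequencing as 1 pool per genotype with 4 hashtagged samples each. The study asked how an immune response evoked by Trex1 loss bears on tumour growth. Because each genotype was loaded as 1 pool, the effects of genotype and of pool cannot be told apart, and the labels do not say that each hashtag was 1 mouse, so p-values measure the spread between these 8 samples.

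After filtering, 22052 cells remained, 13232 from Trex1 iKO and 8820 from control samples, with a median of 12535.5 to 14221 UMIs per cell in the iKO samples and 5794 to 11490 in the controls. Marker gates placed 18180 cells (82.4%) in 11 leukocyte types, of which 7785 were monocytes or macrophages, 5158 CD8 T cells and 1585 neutrophils, although the labels call the material tumour-infiltrating lymphocytes. Trex1 itself gave 2 UMIs in all, both in control sample 2, so these counts cannot check the genotype labels. RNA of other cells was present in every gate: at 2000 UMIs per cell the neutrophil transcript S100a8 was seen in 6.92% to 10.2% of iKO CD8 T cells and in 20.7% to 32.9% of control CD8 T cells. Levels are given as CPM, the UMIs of a gene per 1000000 UMIs of all genes in the summed cells of a sample, and they were not compared between genes because 3' capture differs from gene to gene.

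Promoter sequences from RefSeq (GRCm38.p6, 250 bases before to 50 after each start) were found for 8 of the 10 genes. Ifi27l2a and Rtp4 had no entry. The windows were searched on both strands for GAAANNGAAA, the core of the interferon-stimulated response element, and for the shorter AANNGAAA bound by IRF factors, which lies inside every match of the longer one. The longer core was present in 4 of the 8 genes and in 3.44% of the 32851 promoter windows of the table, and the shorter one in 6 of the 8 and in 23.9% of all windows. The sequences below, written 5' to 3' in the direction of transcription, carry the matches in capitals (the longer core in the first 4 genes, the shorter one in Ifi44) and are shown because these are the genes whose levels are set against each other further on.
Bst2, chr8:71537473-71537722, minus strand: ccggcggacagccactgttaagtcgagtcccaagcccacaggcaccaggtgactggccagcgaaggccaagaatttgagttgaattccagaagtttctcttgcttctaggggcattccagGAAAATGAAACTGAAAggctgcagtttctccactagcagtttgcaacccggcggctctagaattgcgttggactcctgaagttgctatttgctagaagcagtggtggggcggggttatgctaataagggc
Rsad2, chr12:26456453-26456702, minus strand: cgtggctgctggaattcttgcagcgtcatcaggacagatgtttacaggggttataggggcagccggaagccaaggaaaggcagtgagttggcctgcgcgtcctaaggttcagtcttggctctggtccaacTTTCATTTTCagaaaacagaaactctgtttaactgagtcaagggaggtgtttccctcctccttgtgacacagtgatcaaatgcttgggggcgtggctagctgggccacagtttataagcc
Ifitm2, chr7:140955988-140956017, minus strand: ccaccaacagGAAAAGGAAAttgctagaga
Ifitm3, chr7:141010714-141010743, minus strand: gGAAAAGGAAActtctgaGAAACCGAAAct
Ifi44, chr3:151749943-151749972, minus strand: tacagagTTTCAGTTTTCGTTTcccgagca

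Bst2 held a pair of overlapping matches that began 130 and 124 bases before the start, Rsad2 1 on the opposite strand 120 bases before it, and Ifitm2 1 at 46 bases before it. Ifitm3 held its pair just after the start, with first bases 3 and 20. Ifitm6 and Ifi44 held only the shorter core, and Ifitm1 and Cmpk2 held neither in this window. These are matches of letters and no binding was measured. Rsad2 and Cmpk2 are next to each other on chromosome 12 in the RefSeq gene order, and Ifitm2, Ifitm1, Ifitm3 and Ifitm6 follow one another on chromosome 7.

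Summed over all cells of a sample, 6 of the 10 genes were higher in Trex1 iKO than in control tumours and none was lower (edgeR quasi-likelihood test, Benjamini-Hochberg adjusted p under 0.05 over 13459 genes). Over all genes tested, 1.69% were called higher and 0.832% lower. Ifi44, Ifi27l2a, Cmpk2, Rtp4, Bst2 and Ifitm3 passed, while Rsad2, Ifitm6, Ifitm2 and Ifitm1 did not. The median log2 fold change of the 10 was 1.39, beside -0.01 for all genes tested. In such sums, more cells of a type and more RNA per cell cannot be told apart, which the gated types below partly separate. Mean levels of all 4 melanoma and all 5 T cell markers were higher in whole iKO samples, and those of none of 7 neutrophil and 6 B cell markers. The part of such shifts in these differences was not tested.

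The calls differed in how they held when 1 sample was left out. Those for Ifi44, Ifi27l2a, Rtp4 and Bst2 passed under every alternative run. The call for Ifitm3 (0.78 ± 0.14 log2, SE, adjusted p = 0.0279) did not pass without iKO sample 1, 3 or 4 or without control sample 1, 2 or 3, with an adjusted p of at most 0.0914. That for Cmpk2 (1.90 ± 0.40, adjusted p = 0.0474) did not pass without iKO sample 1, 2 or 3, without any 1 of the 4 controls, or with a stricter cell filter, with an adjusted p of at most 0.148. Rsad2 had a log2 difference of 1.48 ± 0.39 that did not pass (edgeR adjusted p = 0.0877), and it passed once the replicate number was entered as a block (1.48, adjusted p = 0.00671).

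Within gated types, 8 types had at least 3 samples per genotype with 20 or more cells, and in 6 of them at least 4 of the genes were called higher. The number called higher was 6 of 10 genes tested in CD8 T cells (1.84% of all genes tested there were called higher), 4 of 7 in CD4 T cells (1.97%), 4 of 8 in regulatory T cells (0.713%), 4 of 6 in B cells (2.05%), 5 of 10 in monocytes and macrophages (4.64%) and 6 of 9 in neutrophils (2.22%). No gene was called in type 2 conventional dendritic cells (cDC2, 0 of 10, with 0.0125% of all genes called higher) or in mature dendritic cells (0 of 7, 0.105%) by edgeR, where 5 and 6 of them had an unadjusted p under 0.05 and DESeq2 called 4 and 3. In all, 29 of 67 tests of a gene in a type passed, each with the higher level in Trex1 iKO, and the calls of a lower level that other settings made for Ifitm1 and Ifitm2 are given with those genes. The regulatory T cell count rested on single samples: no gene passed there without iKO sample 1, iKO sample 2 or control sample 3, 1 passed without control sample 2 and 2 without control sample 4. In neutrophils 3 passed without control sample 3 or 4, and in CD4 T cells 7 without control sample 1. The CD4 T cell count includes genes not tested there in the main fit, since fewer samples must reach the low-count filter when 1 is left out. Of the genes outside that fit, Ifi44 and Cmpk2 had control levels of at most 12.8 and 6.15 CPM in CD4 T cells. Their iKO samples ran from 22.9 to 82.4 and from 23.2 to 80.0 CPM, so they could enter through these alone. A gene that passed the filter on low counts only because of its iKO level had to differ, so these counts describe the genes tested and not all 10. This was so for Ifi44 in CD8 T and regulatory T cells and for Rtp4 in B cells. No control sample reached the filter's level there (highest controls 1.51, 14.7 and 35.5 CPM). Other genes were tested with only some controls at that level, so their iKO samples also carried them over the filter. For Rsad2 only control sample 1 was that high in CD4 T cells (28.5 CPM), and only control sample 2 in regulatory T cells (96.3 CPM).

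As a count with no model, all iKO samples lay above all control samples for 7 of 10 genes in whole samples (8.41% of all genes tested), 6 of 10 in CD8 T cells (5.42%), 4 of 7 in CD4 T cells (4.89%), 4 of 8 in regulatory T cells (5.96%), 3 of 6 in B cells (3.77%), 5 of 10 in monocytes and macrophages (12.2%), 4 of 9 in neutrophils (3.32%), 4 of 10 in cDC2 (4.83%) and 0 of 7 in mature dendritic cells (2.76%). Ifitm1 in whole samples was the 1 gene for which all iKO samples lay below all controls. Bst2, Ifi27l2a and Rtp4 were free of overlap in most types, with overlap for Bst2 in neutrophils and for all 3 in mature dendritic cells.

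**Figure D1:**
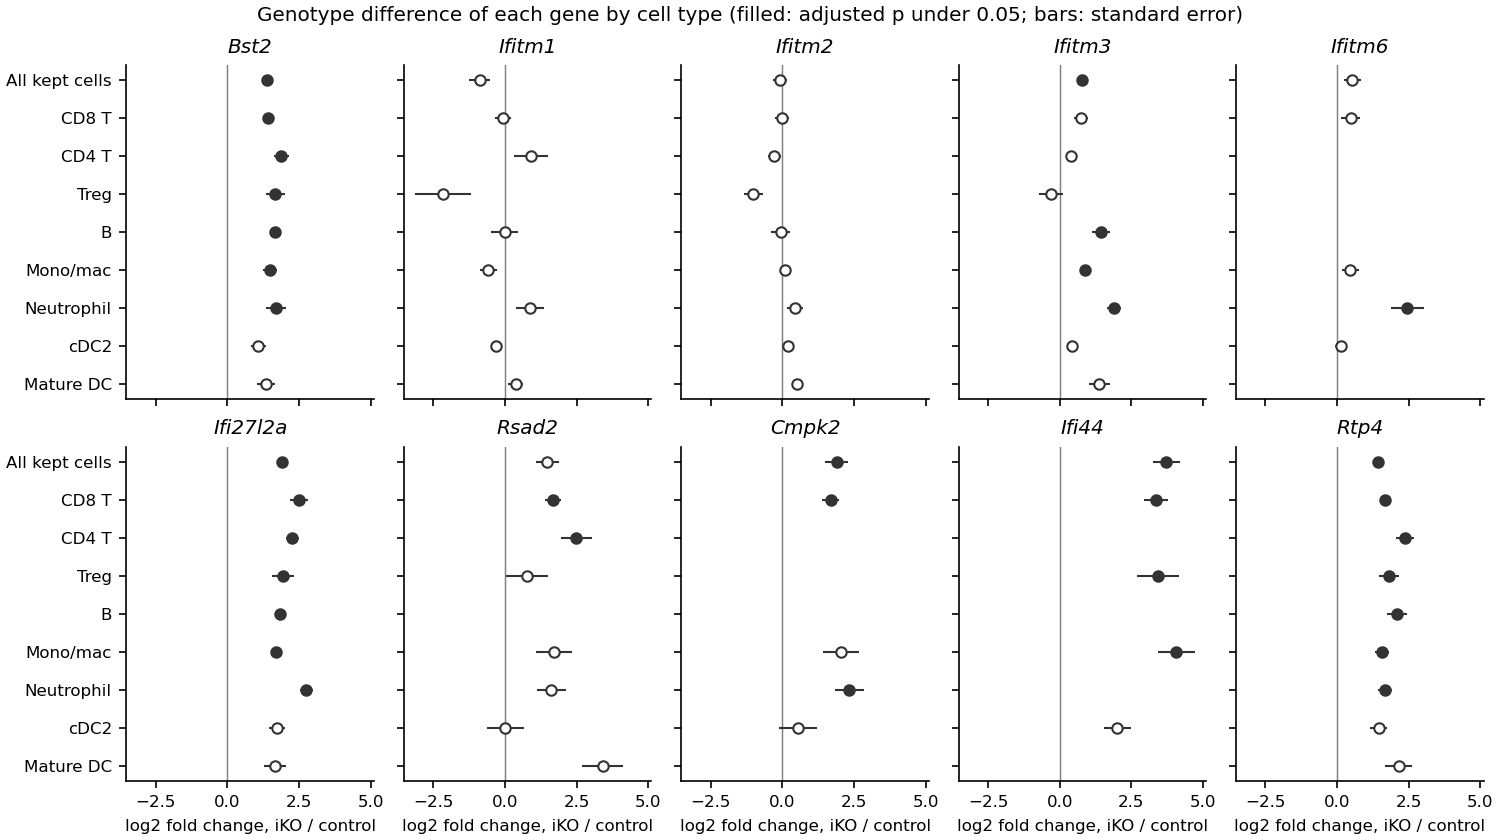
Genotype difference of each of the 10 genes (1 panel per gene) in all kept cells and in 8 gated leukocyte types (rows), as log2 fold change of Trex1 iKO over control with standard error bars, filled circles for an adjusted p under 0.05, and no circle where a gene did not pass the low-count filter. Bst2, Ifi27l2a and Rtp4 have filled circles in 6 of 8 types each, while Ifitm1 and Ifitm2 have none.

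Tetherin, encoded by Bst2 (ENSMUSG00000046718), was called higher in CD8 T, CD4 T and regulatory T cells, B cells, monocytes and macrophages, and neutrophils. In monocytes and macrophages it stood at 880.2, 972, 568 and 601 CPM in iKO samples 1 to 4 and at 357, 261, 253 and 196 CPM in control samples 1 to 4. The groups did not overlap, and iKO samples 1 and 2 lay above iKO samples 3 and 4. The difference was 1.49 ± 0.24 log2 (SE, edgeR adjusted p = 0.0115).

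In B cells, with 227 Bst2 UMIs in the iKO and 157 in the control samples, the levels were 195, 260.3, 174 and 173 CPM against 88.7, 64.0, 58.7 and 56.2 CPM. Every iKO value exceeded every control value, and the difference of 1.67 ± 0.20 had the smallest adjusted p of any type for this gene (6.01e-06). The log2 differences in CD8 T and CD4 T cells were 1.41 ± 0.14 (adjusted p = 0.000712) and 1.88 ± 0.27 (0.000813). In neutrophils Bst2 was 222, 243, 66.6 and 99.1 CPM in the iKO samples and 49.7, 75.8, 56.9 and 32.1 CPM in the controls, so that iKO sample 3 lay below control sample 2. Its call there (1.70 ± 0.35, adjusted p = 0.0236) did not pass without iKO sample 1 or 2, without control sample 3 or 4, with clusters in place of gates, or with at least 50 cells per profile, with an adjusted p of at most 0.297.

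Among the 8 tested types, control Bst2 was highest in monocytes and macrophages (267 ± 66.6 CPM, SD, n = 4) and cDC2 (259 ± 85) and lowest in B cells (66.9 ± 14.9) and neutrophils (53.6 ± 18.1), and each type overlapped its neighbour in this order. In the joint fit of all types the control level in neutrophils was 1.83 ± 0.19 log2 below that in monocytes and macrophages (adjusted p = 3.76e-12, with 64.9% of all genes differing between these types). Plasmacytoid dendritic cells, in which Bst2 is a standing surface marker, gave 4960.1, 4098 and 4589.7 CPM in iKO samples 1, 2 and 4 and 4247 CPM in control sample 3, the profiles with at least 20 such cells. Their single control profile fell within the iKO range, and with 1 control no test was made.

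**Figure D2:**
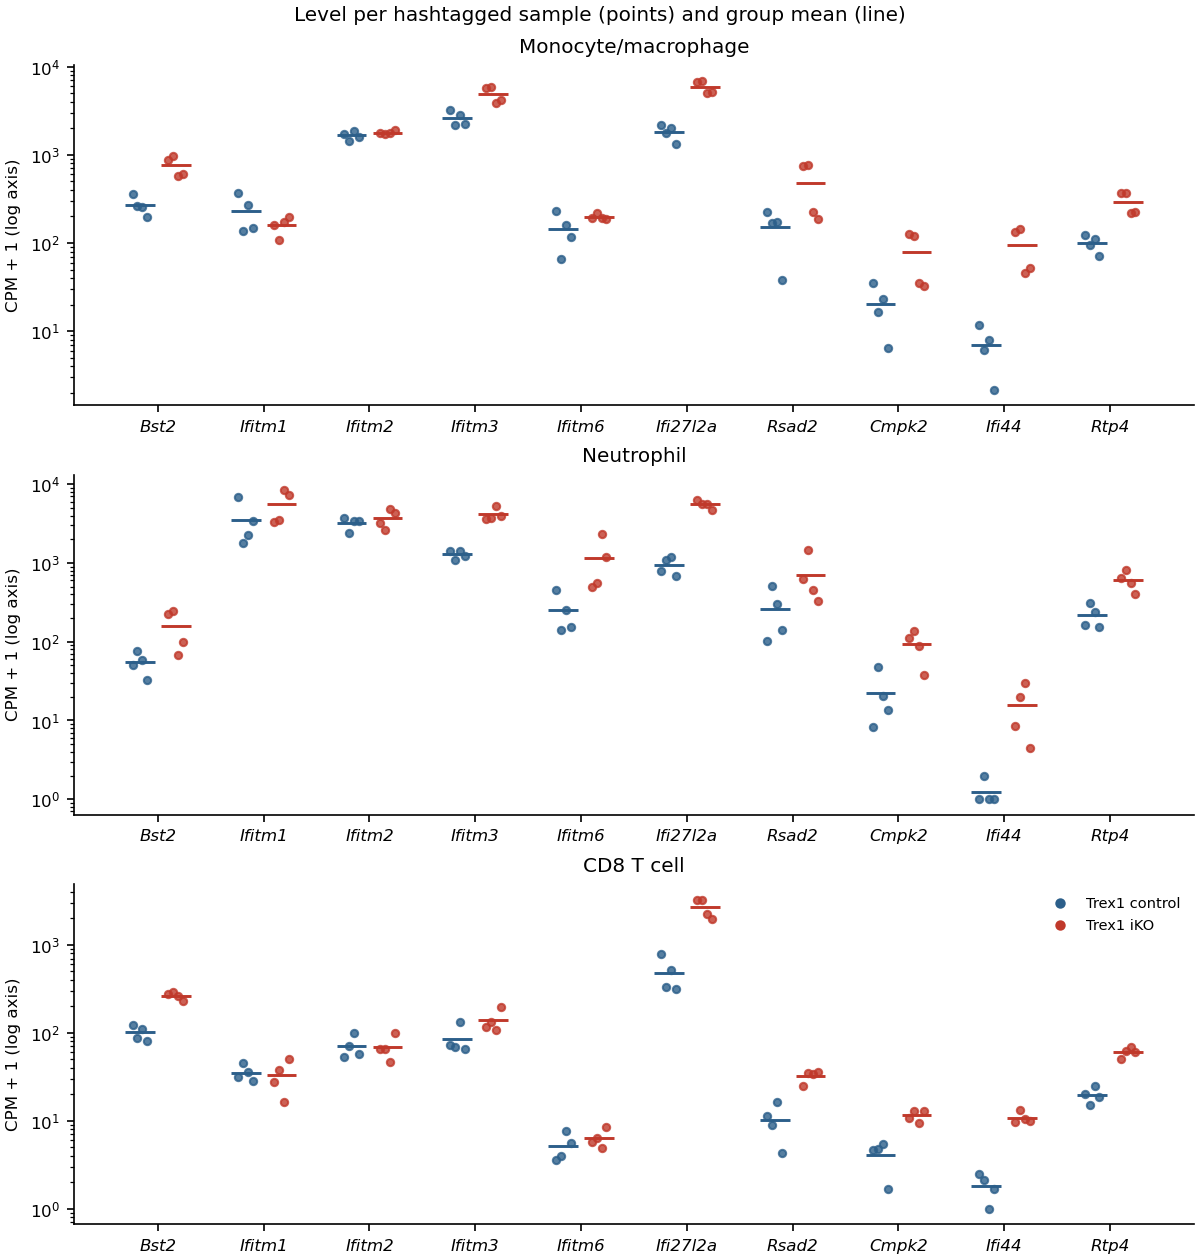
Level of each of the 10 genes as CPM + 1 (log axes) in monocytes and macrophages, neutrophils and CD8 T cells (panels), with 1 point per hashtagged sample, control in blue and Trex1 iKO in red, and lines at group means. In monocytes and macrophages Ifi44 ran from 44.3 to 145 CPM in iKO samples and from 1.17 to 10.7 CPM in controls, whereas the Ifitm2 groups overlap.

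Of the 4 Ifitm genes, Ifitm3 was called higher in neutrophils, monocytes and macrophages, and B cells, and Ifitm6 in neutrophils. Neither Ifitm1 nor Ifitm2 was called in any of 8 types by edgeR, and they had an unadjusted p under 0.05 in 1 and 2 types. All encode small proteins with a membrane-embedded hairpin. Ifitm3 is the endosomal member best known for blocking influenza virus entry, Ifitm1 acts mainly at the plasma membrane, Ifitm2 is a close relative of Ifitm3, and Ifitm6 is a rodent gene known from myeloid cells.

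Neutrophil Ifitm3 (ENSMUSG00000025492) stood at 3649, 3725, 5319.6 and 3944 CPM in iKO samples 1 to 4 and at 1421, 1088, 1431 and 1216 CPM in the controls. The groups were wide apart, with every iKO value above all 4 controls, and the log2 difference was 1.90 ± 0.25 (edgeR adjusted p = 0.00109). Monocyte and macrophage markers summed to 4584 to 5425 CPM in iKO and 2896 to 6222 CPM in control neutrophils, beside 13552 to 16718 and 13782 to 19109 CPM in monocytes and macrophages themselves, with 6 of 10 markers higher in iKO neutrophils and none at 0, and their part in the neutrophil difference was not tested.

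In monocytes and macrophages Ifitm3 was 5693, 5828, 3892 and 4230.3 CPM against 3244, 2202, 2855 and 2256 CPM. The groups did not overlap, although the difference was smaller (0.89 ± 0.19, adjusted p = 0.0244) and did not pass when iKO sample 1 or 2, or any of control samples 2, 3 and 4, was removed (adjusted p at most 0.0773). B cell Ifitm3 was 623, 595, 239 and 203 CPM against 41.4, 144, 211 and 107 CPM, with iKO sample 4 below control sample 3. Its call (1.43 ± 0.32, adjusted p = 0.00913) failed without iKO sample 1 or 2 and with DESeq2 (adjusted p at most 0.13). In CD8 T cells Ifitm3 was 0.75 ± 0.25 log2 higher without passing (adjusted p = 0.162), and in regulatory T cells the value was -0.30 ± 0.41 (0.799).

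Neutrophil Ifitm6 (ENSMUSG00000059108) was 498, 558, 2327 and 1201 CPM in iKO samples 1 to 4 and 455, 138, 251 and 153 CPM in the controls. Samples 3 and 4 were the high ones here, the reverse of Bst2, and iKO sample 1 stood only slightly above control sample 1. The log2 difference of 2.45 ± 0.58 (edgeR adjusted p = 0.0458) no longer passed without iKO sample 3 or 4, without control sample 2, 3 or 4, or with clusters in place of gates (adjusted p at most 0.162). Ifitm6 in monocytes and macrophages gave 0.46 ± 0.30 (adjusted p = 0.35) and in cDC2 0.13 ± 0.19 (0.851).

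Ifitm1 (ENSMUSG00000025491) was 206, 231, 625 and 609.7 CPM in whole iKO samples and 900.4, 770.2, 715 and 677 CPM in whole controls. All iKO samples lay below all controls, as they did for 5.42% of all genes tested, with the lowest values in iKO samples 1 and 2, and the difference of -0.88 ± 0.37 did not pass (edgeR adjusted p = 0.218). None of 7 neutrophil markers was higher in the whole iKO samples, where they summed to 794 to 7404 CPM against 4918 to 12467 CPM in controls with no marker at 0, and their part in the Ifitm1 value was not tested. Within neutrophils, which with cDC2 held the most of this transcript, Ifitm1 was 3355, 3536, 8394 and 7292 CPM against 6783, 1775, 2253 and 3368 CPM. These groups overlapped and the log2 difference was 0.88 ± 0.48 (adjusted p = 0.433). Regulatory T cell Ifitm1 was 39.1, 133, 7.49 and 15.6 CPM in the iKO samples and 836, 25.4, 79.4 and 12.6 CPM in the controls, where control sample 1 alone was high. The log2 difference of -2.16 ± 0.97 did not pass (adjusted p = 0.324), it was called without the low-count filter (-2.10, 2.1e-25), and it was 0.18 without control sample 1. B cell Ifitm1 gave -0.01 ± 0.47, and was called lower only without iKO sample 1 (-1.65, 0.0188). In clusters used in place of gates, cDC2 Ifitm1 was called lower (-0.45, adjusted p = 0.0287), against -0.30 ± 0.14 (0.49) in the gate. That cluster held 920 cells and the gate 443.

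Ifitm2 (ENSMUSG00000060591) was close in both genotypes in monocytes and macrophages, where it stood at 1756, 1717, 1774 and 1907 CPM in the iKO samples and 1731, 1426, 1871 and 1589 CPM in the controls. The groups overlapped and the log2 difference was 0.09 ± 0.08 (edgeR adjusted p = 0.514). Its largest differences in each direction were -1.01 ± 0.34 in regulatory T cells (0.16) and 0.51 ± 0.17 in mature dendritic cells (0.233), neither of which passed. In regulatory T cells Ifitm2 was called lower without the low-count filter (-0.95, 4.24e-06), with clusters (-1.09, 0.00759) and with the stricter gate (-1.11, 0.0288), and in B cells without iKO sample 1 (-0.83, 0.0434). Neutrophil markers summed to 91.6 to 118 CPM in iKO and 234 to 344 CPM in control regulatory T cells, with 0 of 7 higher in iKO. Monocyte and macrophage markers there summed to 231 to 880 and 402 to 1503 CPM, with 1 of 10 higher in iKO. In B cells neutrophil markers summed to 209 to 298 and 603 to 765 CPM, with 1 of 7 higher in iKO. The part of such RNA in these Ifitm2 values was not tested.

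Across types the Ifitm genes were highest in myeloid cells, although Ifitm1 in monocytes and macrophages was no higher than in regulatory T cells (control means 231 and 238 CPM, the latter set by control sample 1). Control Ifitm1 averaged 4329 ± 639 CPM in cDC2 and 3544 ± 2260.0 CPM in neutrophils (SD, n = 4), which overlapped each other, and no other type reached either. Control Ifitm6 was 249 ± 146 CPM in neutrophils, 175 ± 39.5 in cDC2 and 142 ± 69.1 in monocytes and macrophages, again overlapping, and at most 10.5 CPM on average in lymphocytes and mature dendritic cells. Against monocytes and macrophages, control neutrophils held more Ifitm1 (4.45 ± 0.65 log2, adjusted p = 3.76e-08), Ifitm2 (1.47 ± 0.28, 7.37e-06) and Ifitm6 (1.31 ± 0.33, 0.000499), while their Ifitm3 did not differ beyond the test's threshold (-0.52 ± 0.30, 0.128). In CPM, however, control Ifitm3 was lower in neutrophils without overlap, at 1088 to 1431 against 2202 to 3244 CPM. The fit rescales the samples, which CPM does not, so the types are not shown to be alike in Ifitm3. The sizes of the called differences carry the same rescaling. In CPM, control Ifitm2 averaged 3220 in neutrophils and 1654 in monocytes and macrophages, and control Ifitm6 overlapped (138 to 455 and 65.0 to 228). CD8 T cells were lowest for Ifitm2, with 4.79 ± 0.33 log2 less than monocytes and macrophages (adjusted p = 7.51e-19, with 66.6% of all genes differing between these types), and for Ifitm3, with 5.20 ± 0.36 less (2.34e-18).

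The Ifitm genes resemble each other at their 3' ends, which 3' counting reads. Over the last 400 bases of the transcripts Ifitm1 and Ifitm2 were 70.7% identical, Ifitm1 and Ifitm3 64.4%, and Ifitm2 and Ifitm3 64.3%. Over the whole transcripts these pairs shared 10, 35 and 39 overlapping runs of 31 bases, and Ifitm6 shared none with any of them. How counting assigned reads in shared runs is not given in the sources used here, so a small exchange of counts among Ifitm1, Ifitm2 and Ifitm3 cannot be told apart from their own expression.

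**Figure D3:**
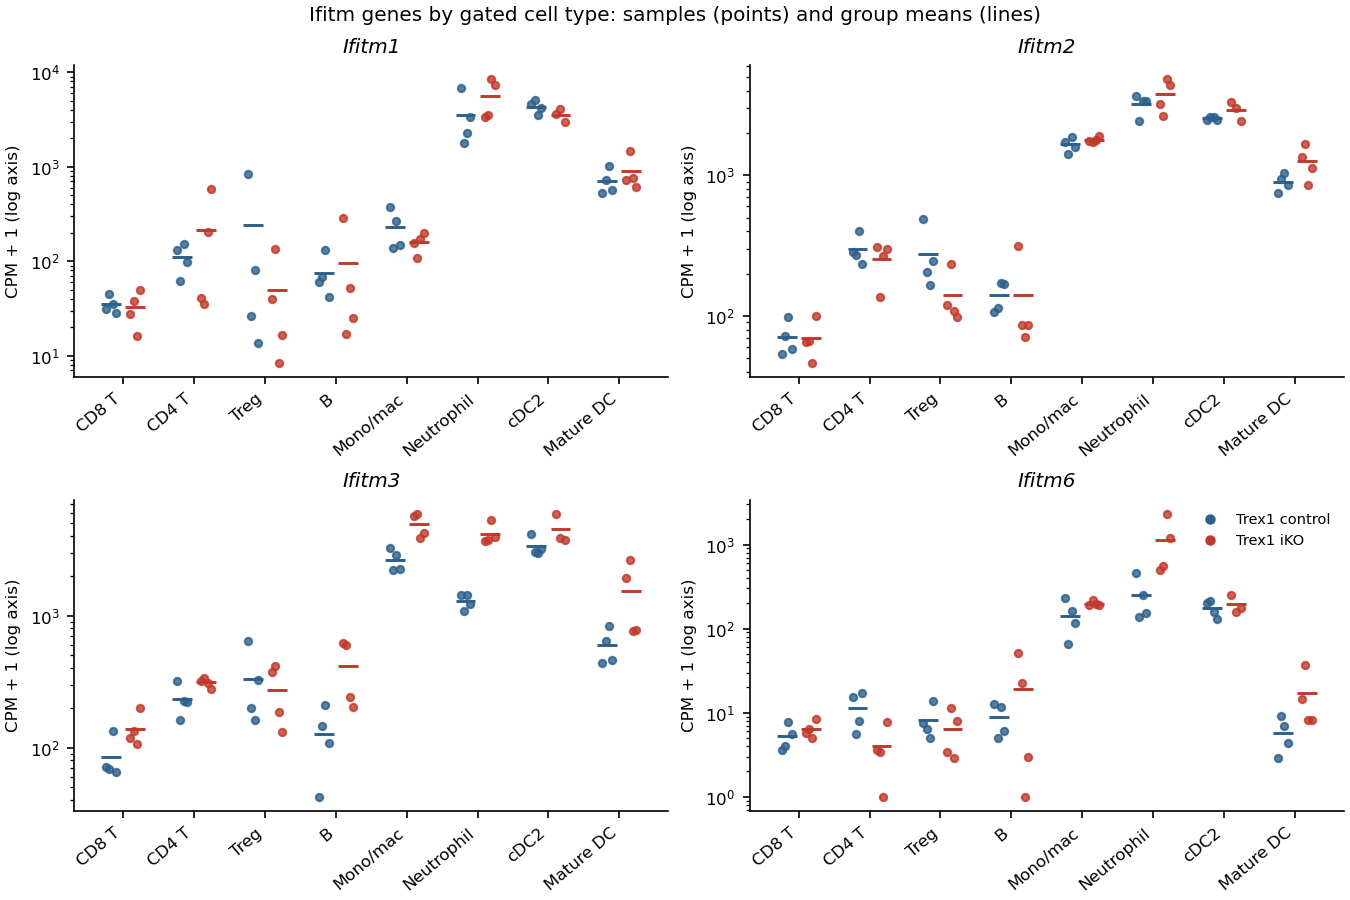
Ifitm1, Ifitm2, Ifitm3 and Ifitm6 as CPM + 1 (log axes) in 8 gated types, with 1 point per sample, control in blue and Trex1 iKO in red, and lines at group means. Ifitm3 in neutrophils shows 4 iKO points from 3649 to 5319.6 CPM above 4 control points from 1088 to 1431 CPM, while the Ifitm1 and Ifitm2 groups overlap in neutrophils.

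Ifi27l2a (ENSMUSG00000079017), a small hydrophobic mitochondrial or membrane protein known as ISG12, was called higher in the same 6 types as Bst2, as was Rtp4. In neutrophils it stood at 6315, 5649, 5554 and 4673 CPM in the iKO samples and at 778, 1100.0, 1201 and 684 CPM in the controls. No sample came near the other group, and the log2 difference of 2.75 ± 0.23 (edgeR adjusted p = 0.000118) was this gene's largest over the 8 types. In CD8 T cells the levels were 3262, 3268, 2227 and 1969 CPM against 782, 328, 512 and 311 CPM, also without overlap, with a difference of 2.50 ± 0.30 (adjusted p = 0.00218).

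The differences in CD4 T cells, B cells, and monocytes and macrophages were 2.26 ± 0.22 (adjusted p = 3.48e-05), 1.85 ± 0.19 (1.39e-06) and 1.69 ± 0.18 (0.00554) for Ifi27l2a. Regulatory T cells reached its highest mean level in both genotypes. Their iKO samples gave 10003, 11567, 5557 and 3599 CPM and their controls 3262, 1861, 1609.9 and 891 CPM. The groups did not overlap, but the lowest iKO and the highest control value were close, and the call (1.94 ± 0.37, adjusted p = 0.0214) did not survive leaving out iKO sample 1, iKO sample 2, control sample 2 or control sample 3 (adjusted p at most 0.0875). Regulatory T cells and monocytes and macrophages did not differ in control level beyond the threshold (-0.35 ± 0.21 log2, 0.154, with 54.3% of all genes differing).

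In the types with too few samples for a test, Ifi27l2a ran the same way. Natural killer cells gave 1429 and 1324 CPM in iKO samples 1 and 2 and 196 and 144 CPM in control samples 1 and 3. Type 1 conventional dendritic cells gave 2295, 2528, 1478 and 843 CPM in the iKO samples and 381 and 132 CPM in control samples 3 and 4. Neither type had overlapping groups. Its relative and neighbour Ifi27 was lower in iKO monocytes and macrophages (-0.82 ± 0.21 log2, edgeR adjusted p = 0.0412), while in whole samples it stood at 0.34 ± 0.28 (0.506) and in CD8 T cells at 0.71 ± 0.19 (0.0774). Ifi27l2a shares 50 overlapping runs of 31 bases with Ifi27l2b over the whole transcripts, and Ifi27l2b had 3 UMIs in all iKO and 0 in all control cells.

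Viperin, encoded by Rsad2 (ENSMUSG00000020641), passed the test in CD8 T and CD4 T cells. In CD8 T cells it stood at 23.7, 33.8, 33.2 and 35 CPM in the iKO samples and 10.4, 7.85, 15.3 and 3.29 CPM in the controls. All iKO values exceeded all controls, and the difference was 1.69 ± 0.28 log2 (edgeR adjusted p = 0.0105), with an adjusted p of 0.0563 without control sample 2. In CD4 T cells the levels were 44.9, 184, 54.2 and 34.3 CPM against 28.5, 9.23, 8.04 and 6.53 CPM, and the difference of 2.50 ± 0.53 (adjusted p = 0.013) failed when either iKO sample 2 or control sample 3 was removed (adjusted p at most 0.0824). Only control sample 1 reached the level of the low-count filter there, so Rsad2 entered this test through its iKO samples.

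In the types with the most Rsad2, the iKO samples were spread widely. Monocytes and macrophages gave 741, 773, 221 and 188 CPM in the iKO samples and 222, 166, 173 and 36.6 CPM in the controls. Samples 1 and 2 of the iKO were far above the rest, samples 3 and 4 were within or near the control range, and the difference of 1.72 ± 0.62 did not pass (edgeR adjusted p = 0.111). With the replicate number as a block it passed (1.66, adjusted p = 0.0248). Neutrophils gave 618, 1439, 449 and 333 CPM against 101, 508, 298 and 141 CPM. Here iKO samples 3 and 4 fell below control sample 2, with 1.62 ± 0.50 (adjusted p = 0.138) and, with the block, 1.66 (0.00121).

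Mature dendritic cells had the largest fitted difference for Rsad2, from 363, 275, 292 and 26.6 CPM in the iKO samples and 18.6, 22.9, 44.8 and 4.25 CPM in the controls. Of the iKO samples, the fourth lay inside the control range, and the difference of 3.41 ± 0.71 had an adjusted p of 0.0677, with 3.36 and 8.04e-05 under the block. In cDC2 the value was 0.02 ± 0.65 (0.994), from 3 iKO samples at 25.5 to 81.9 CPM and 4 controls at 10.9 to 132 CPM, and in regulatory T cells 0.77 ± 0.75 (0.703). The last value rested on control sample 2, at 96.3 CPM with the other controls at 0 to 4.86 CPM: without it the difference was 3.64 (adjusted p = 0.0295), with the stricter gate 3.67 (0.00436), and over all samples left out in turn it ran from 0.26 to 3.64. Without control sample 2, Rsad2 entered the regulatory T cell test through its iKO level alone, so a difference was built into that value.

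Cmpk2 (ENSMUSG00000020638), the mitochondrial UMP-CMP kinase next to Rsad2, had its high iKO samples in common with viperin. Monocytes and macrophages held it at 125, 119, 34.5 and 31.4 CPM in the iKO samples and 33.7, 15.5, 22.3 and 5.48 CPM in the controls. Samples 1 and 2 of the iKO stood apart, sample 4 was below control sample 1, and the difference of 2.06 ± 0.63 did not pass (edgeR adjusted p = 0.0724) unless the block was used (1.96, 0.0204). Cmpk2 was called in CD8 T cells (1.68 ± 0.29, adjusted p = 0.0124) and neutrophils (2.34 ± 0.50, 0.025). The first call failed when either iKO sample 2 or control sample 2 was removed (adjusted p at most 0.0629), and the second without iKO sample 1, 2 or 3, without control sample 3 or 4, or with at least 50 cells per profile (at most 0.107).

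Cells with Rsad2 carried Cmpk2 more often than cells without it. Among iKO monocytes and macrophages thinned to 2000 UMIs, Cmpk2 was detected in 14.9% to 28.2% of cells with a Rsad2 UMI and in 2.19% to 5.06% of cells without one. In control samples these shares were 4.88% to 42.9% and 0.322% to 1.03%. The ranges with and without Rsad2 did not overlap in either genotype. Over the 8 control types, mean levels of the pair had a Pearson correlation of 0.813, from types that share libraries.

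Ifi44 (ENSMUSG00000028037), a cytoplasmic protein linked to microtubules and to slowed cell growth, had the largest fold change of the 10 genes in whole samples, with levels of 74.5, 73.4, 37.3 and 41.7 CPM in the iKO samples and 7.97, 4.4, 3.72 and 1.53 CPM in the controls. The difference was 3.72 ± 0.47 log2 (edgeR adjusted p = 0.00621). Monocytes and macrophages gave 132, 145, 44.3 and 51.6 CPM against 10.7, 5.17, 6.86 and 1.17 CPM. Even the lowest iKO sample was above every control there, and the difference was 4.07 ± 0.65 (adjusted p = 0.0113). In CD8 T cells the difference was 3.36 ± 0.41 (0.00229), from 805 UMIs in the iKO and 14 in the control samples. No control reached the level of the low-count filter in CD8 T cells, so a difference was built into that test.

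Counts of Ifi44 were too low for the test in 4 types. B cells held 32 UMIs in the iKO and 1 in the control samples, and neutrophils 37 and 1. In regulatory T cells the call (3.43 ± 0.75, adjusted p = 0.0336) failed with DESeq2 and on removal of iKO sample 1 or 2, or of control sample 2, 3 or 4 (adjusted p at most 0.171). There too Ifi44 entered the test through its iKO level alone. Natural killer cells, with too few samples to test, gave 118 and 97.9 CPM in iKO samples 1 and 2 and 10.3 and 6.54 CPM in control samples 1 and 3. The gene next to it, Ifi44l, had 0 UMIs among 304234585 in all samples, which allows a level of up to 0.00986 CPM (3 counts, counting error only).

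Rtp4 (ENSMUSG00000033355), a Golgi-associated chaperone of receptors that also binds viral RNA, varied little between whole samples of a group, though more within single types. Whole iKO samples stood at 205, 192, 174 and 176 CPM and whole controls at 76.4, 74.1, 68.1 and 62.0 CPM. The groups were far apart relative to their spread, with a difference of 1.41 ± 0.09 log2 (edgeR adjusted p = 0.000434). Neutrophils were the type with most Rtp4, at 645, 811, 554 and 406 CPM against 164, 307, 241 and 151 CPM, and again did not overlap (1.67 ± 0.26, adjusted p = 0.00283).

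The other called Rtp4 differences ran from 1.56 ± 0.25 in monocytes and macrophages (adjusted p = 0.0111) over 1.67 ± 0.16 in CD8 T cells (0.000705) and 2.09 ± 0.34 in B cells (0.000464) to 2.36 ± 0.31 in CD4 T cells (0.000358). In B cells Rtp4 entered the test through its iKO level alone. In regulatory T cells, 1.82 ± 0.36 (0.0242) failed on removal of iKO sample 1 or 2, or of control sample 2 or 3 (adjusted p at most 0.101). Bst2 there (1.67 ± 0.33, 0.0253) was lost without any of these or control sample 4 (at most 0.101). Control neutrophils held 1.63 ± 0.22 log2 more Rtp4 than control monocytes and macrophages (adjusted p = 3.95e-09). This size carries the rescaling of the joint fit. In CPM the control ranges were 151 to 307 and 69.9 to 121, without overlap.

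Both dendritic gates without a call had differences of similar sign. In cDC2, Ifi44 was 2.01 ± 0.48 log2 higher (edgeR adjusted p = 0.182), Ifi27l2a 1.73 ± 0.30 (0.0672), Rtp4 1.45 ± 0.31 (0.147) and Bst2 1.08 ± 0.25 (0.18), from 3 iKO samples because sample 1 had only 13 such cells and was left out. For each of these genes all 3 iKO samples lay above all 4 controls. With the replicate block they passed, at 2.63 (0.00156), 1.99 (0.00175), 1.70 (0.00552) and 1.26 (0.0197). In mature dendritic cells Bst2 was 1.34 ± 0.31 higher (0.0978), Ifi27l2a 1.66 ± 0.40 (0.113) and Rtp4 2.14 ± 0.47 (0.0779). Their block values were 1.25 (0.00597), 1.56 (0.0197) and 1.97 (0.0118), and iKO samples 3 and 4 were the low ones in this gate.

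Whether the genotype difference itself varied between types was tested in 1 joint fit of the 63 profiles. No gene of the 10 passed in edgeR, while 1.73% of all genes did. Without the low-count filter most of the 10 passed, and 4.65% of all genes. The closest were Ifitm6 (adjusted p = 0.0505) and Ifitm3 (0.0556), which passed with another library scaling (DESeq2-type size factors, 0.0353 and 0.0354), followed by Ifi27l2a (0.121). The neutrophil difference exceeded that of monocytes and macrophages by 1.76 ± 0.47 log2 for Ifitm6 (adjusted p = 0.0688), by 0.94 ± 0.29 for Ifi27l2a (0.117) and by 0.96 ± 0.43 for Ifitm3 (0.35). In this contrast 0.447% of all genes differed. Without iKO sample 3 the Ifitm6 value was 1.12 (0.291), and 0.302% of all genes differed. That Ifitm6 was called only in neutrophils is therefore not shown to be a difference between types.

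Every cell was thinned to 2000 UMIs so that the share of cells with a transcript could be set side by side at 1 depth, a share that still depends on the amount per cell. In monocytes and macrophages Bst2 was detected in 69.3% ± 8.9 of iKO and 35.3% ± 4.9 of control cells (SD over 4 samples each), Rtp4 in 42.5% ± 7.2 and 16% ± 3.1, Rsad2 in 27.3% ± 12.2 and 7.51% ± 2.72, and Ifi44 in 14.9% ± 7.7 and 0.922% ± 0.677. Without thinning these shares were 97.5% and 83.4% for Bst2, 88.0% and 50.2% for Rtp4, 58.6% and 18.2% for Rsad2, and 46.9% and 4.68% for Ifi44. No sample of one genotype fell in the range of the other for these genes, which in a 4 against 4 exact permutation test gives the smallest possible two-sided p of 0.0286. Of 80 permutation tests, those in cDC2 being 3 against 4 with the same smallest p, 37 reached it, and after Benjamini-Hochberg adjustment (0.0618) none passed. These 37 could not have had a smaller p, so the lack of a pass does not show that shares were alike. Cells under 2000 UMIs, 80 iKO and 170 control cells, were left out.

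The share of positive cells and the UMIs per positive cell both depend on abundance at this depth. A gene already found in most control cells can hardly rise in share, and a scarce gene rises mainly in share. Whether genes differed in how added transcripts were spread over cells was not tested. Among monocytes and macrophages with at least 1 Rsad2 UMI, the mean was 3.32 UMIs per positive cell in iKO and 4.07 in control samples, and for Cmpk2 it was 1.60 and 1.70, while 9.22% ± 4.69 of iKO and 2.17% ± 1.58 of control cells were Cmpk2-positive (30.0% and 8.68% without thinning). For Ifitm3 and Ifi27l2a most monocytes and macrophages were positive in both genotypes (96.6% and 88.5% for Ifitm3, 98.4% and 82.8% for Ifi27l2a, and without thinning 99.5% and 97.7%, 99.9% and 95.1%), and the mean per positive cell was 10.5 against 6.20 and 12.6 against 4.52. In neutrophils Rsad2 was detected in 42.5% of iKO and 16% of control cells (60.0% and 21.5% without thinning), with 3.39 and 3.29 UMIs per positive cell. In CD8 T cells both measures were higher for Ifi27l2a, which was detected in 89.9% ± 4.7 of iKO and 44.3% ± 8.9 of control cells (99.2% and 78.5% without thinning), with 6.69 and 2.42 UMIs per positive cell. Transcripts that CD8 T cells should lack were seen in 6.92% to 10.2% (S100a8) and 19.4% to 32.7% (Lyz2) of them in iKO and in 20.7% to 32.9% and 30.8% to 37.4% in control samples, and the part of free RNA in the Ifi27l2a shares was not tested.

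**Figure D4:**
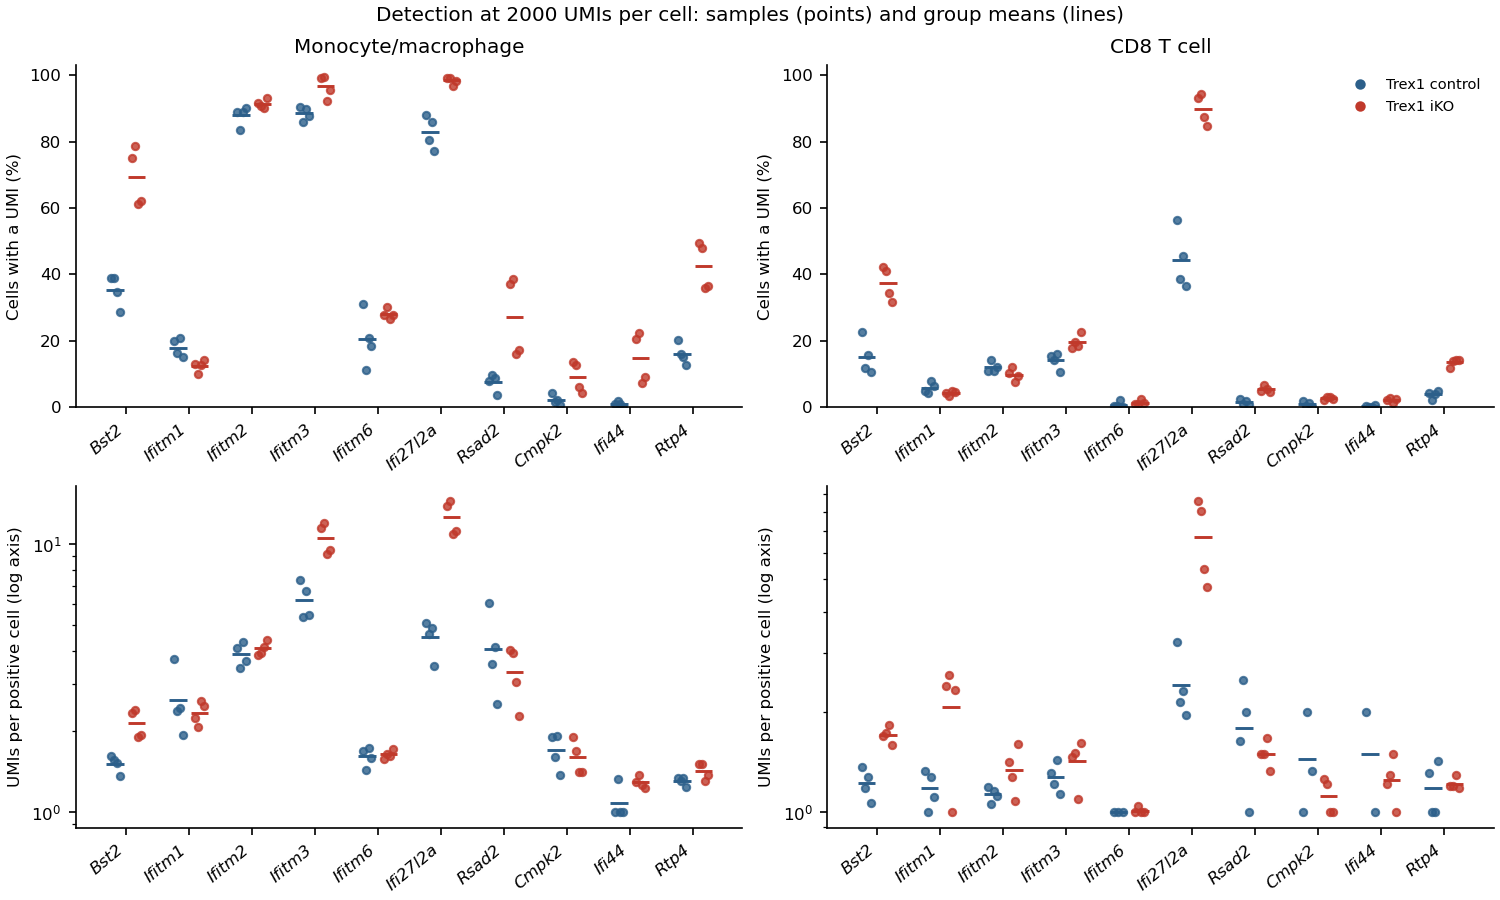
Share of cells with at least 1 UMI of each gene (top) and mean UMIs per positive cell (bottom, log axes) after thinning to 2000 UMIs per cell, in monocytes and macrophages (left) and CD8 T cells (right), with 1 point per sample, control in blue and Trex1 iKO in red, and lines at group means. In monocytes and macrophages Bst2 averaged 69.3% of iKO and 35.3% of control cells, and Rsad2 was carried by more iKO cells at 3.32 UMIs per positive cell against 4.07 in controls.

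Counted per cell, at least 5 of the 10 genes were detected together in 69.2%, 70.2%, 46.5% and 49.3% of monocytes and macrophages in iKO samples 1 to 4 and in 32.1%, 17.7%, 22.8% and 14.8% in control samples 1 to 4. The ranges did not meet, and iKO samples 1 and 2 were again the higher ones. In neutrophils the shares were 61.3% to 87.3% and 15.6% to 28.6%. CD8 T cells rarely carried so many, and none of the 10 was detected in 2.95% to 7.89% of them in iKO and in 26% to 42.9% in control samples.

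Other interferon-induced genes, a list of 48, were counted as well. The list was chosen with earlier results of these data known, so its counts are not independent of them. In whole samples 46 of 48 were called higher and none lower, beside 1.69% and 0.832% of all genes tested. Among those called higher were Irf7 (2.73 ± 0.21 log2, edgeR adjusted p = 0.000804), the transcription factor that amplifies interferon production, the ubiquitin-like modifier Isg15 (2.10 ± 0.24, 0.00396) and Usp18 (2.19 ± 0.27, 0.00621), which removes it. The counts were 44 of 48 in monocytes and macrophages (4.64% of all genes tested were called higher), 43 of 47 in neutrophils (2.22%), 35 of 46 in CD8 T cells (1.84%), 29 of 40 in CD4 T cells (1.97%) and 16 of 27 in B cells (2.05%). They were 11 of 43 in regulatory T cells (0.713%), 2 of 45 in mature dendritic cells (0.105%) and 0 of 48 in cDC2 (0.0125%). In cDC2, 5 of all genes tested were called in either direction, and DESeq2 called 51. With the replicate block the counts of the list were 24 of 43 in regulatory T cells, 20 of 45 in mature dendritic cells and 15 of 48 in cDC2. DESeq2 called 10 of the list in cDC2 and 19 in mature dendritic cells, and clusters in place of gates gave 21, 0 and 41 in regulatory T cells, mature dendritic cells and cDC2. Single samples changed these counts. In monocytes and macrophages the count fell to 24 and 22 without iKO samples 1 and 2 and to 12, 29 and 21 without control samples 2, 3 and 4, and in CD4 T cells, with 16 without iKO sample 2 and 18 without control sample 3. In regulatory T cells it was 1 on removal of iKO sample 1 or 2, or of control sample 2 or 3, 5 without control sample 4, 23 without iKO sample 4 and 24 without control sample 1, and in mature dendritic cells 30 without iKO sample 4. Other Ifitm genes were scarce. Ifitm7 had 11 UMIs in all iKO and 6 in all control cells, and in whole samples Ifitm5 (-0.41 ± 0.30 log2, adjusted p = 0.451) and Ifitm10 (0.11 ± 0.37, 0.884) did not pass the edgeR test.

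Levels over the 8 control types gave each gene a nearest neighbour in expression, as a description from 8 type means that share libraries. Each neighbour is the best match among all genes with a mean of at least 5 CPM, so a high r comes partly from the search itself. The closest to Rtp4 was Fam50a (Pearson r = 0.996), to Ifitm6 Anxa1 (0.990), to Ifitm3 Acvrl1 (0.987), to Rsad2 6430548M08Rik (0.986), to Bst2 Sh3bgrl (0.985), to Cmpk2 Hk3 (0.982), to Ifitm2 Cask (0.977), to Ifitm1 Mapk13 (0.964) and to Ifi27l2a Pparg (0.938). Ifi44 had a control mean under 5 CPM, and its neighbour Fam89b (0.950) rests on few counts. Among the 10 genes themselves the closest pairs were Ifitm2 with Ifitm3 (0.951), Bst2 with Ifi44 (0.927), Cmpk2 with Rtp4 (0.925) and Rsad2 with Rtp4 (0.916).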

How the data were processed

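Raw UMI counts per gene and cell were deposited by the authors as 8 matrices made with Cell Ranger 7.1.0, per the file headers and the submitters' processing notes, which also name GRCm39. These counts, 17111065 to 96457227 UMIs per sample, were used as deposited. Cells with under 300 genes or over 10% mitochondrial UMIs (1241 of 23731) and Scrublet doublets (438, 1.95%) were removed. Marker gates needed 3 detected markers and a lead of 0.1 over the next type, and 96.2% of gated cells had the same type from Leiden clusters. In the other direction the match was lower. Of the 920 cells of the cDC2 cluster 44.3% were gated as cDC2, and 53.1% of the CD4 T cluster as CD4 T. For the regulatory T cell clusters the shares were 55.4% and 49.3%, so cluster results for these types cover other cells as well. Counts were summed per sample and type (at least 20 cells) and fitted with edgeR 4.0.16 (quasi-likelihood test, TMM factors, low-count filter) over all genes, without a replicate term. SE is the log2 fold change over the root of F. All 10 genes were examined in every type, but values are not given for each gene in each type. Examples are named from 48 other interferon-induced genes. The genes and lists were chosen with earlier results of these data known. Samples with the same number had correlated deviations (0.50, 0.24, 0.14 and 0.53), but so had some of different number. Examples are iKO sample 2 with control sample 1 (0.58) and iKO sample 3 with control sample 4 (0.35). The correlations thus do not single out a pairing by number. A fit with the replicate number as a block is given only as an alternative, where it changed a call. The fit recovered 97.5% to 100% of 200 genes changed 4-fold in simulated counts, where 1.96% to 7.44% of its calls were false. The simulation gave all genes of a profile 1 common spread, so it does not measure the power in these data. Alternatives were other scaling, DESeq2 1.42.0, no filter, stricter filters and gates, clusters, no doublet removal and leaving out each sample. Shares of cells were compared after thinning to 2000 UMIs, by exact permutation over samples. No barcode was shared within a pool and at most 6 between samples of different pools, and every replicate pair differed by more than sampling noise, with a ratio of chi-square to its degrees of freedom of 7.65 to 213. The ratio was 7.65 for iKO samples 3 and 4 and 23.6 for iKO samples 1 and 2. Between these pairs it ran from 94.5 to 213, and whether the 4 iKO samples are independent was not tested. Intervals and limits cover counting error only. Spike-ins and hashtags were left out.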

Additional observations from a re-analysis of the deposited data

Results flagged for a closer look

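Among 203 groups of 4 samples, 13 held a sample whose gap to its nearest neighbour took up most of the group's range. Chance gives about 1 in 20 such groups, or 10.15 here.

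In whole-type levels, Ifitm1 in control regulatory T cells was 836 CPM in sample 1 and 12.6 to 79.4 CPM in the others, and Ifitm1 in iKO B cells was 287 CPM in sample 1 and 15.9 to 51.6 CPM in the others. Ifitm2 was 233 CPM in regulatory T cells of iKO sample 2 (others 96.8 to 119.6 CPM) and 315 CPM in B cells of iKO sample 1 (others 70.4 to 85 CPM). Ifitm3 was 132 CPM in CD8 T cells of control sample 3 (others 63.8 to 70.9 CPM), and Ifitm6 was 217 CPM in monocytes and macrophages of iKO sample 2 (others 188 to 193 CPM).

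Rsad2 stood apart in 4 groups. It was low in CD8 T cells of iKO sample 1, at 23.7 CPM with the others at 33.2 to 35 CPM, and high in CD4 T cells of iKO sample 2, at 184 CPM with the others at 34.3 to 54.2 CPM. It was also high in CD4 T cells of control sample 1, at 28.5 CPM with the others at 6.53 to 9.23 CPM, and in regulatory T cells of control sample 2, at 96.3 CPM with the others at 0 to 4.86 CPM.

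In shares of cells thinned to 2000 UMIs, Ifitm6 was detected in 2.38% of CD8 T cells of iKO sample 3 (others 0.983% to 1.13%). Neutrophils of iKO sample 4 had the lowest shares for Ifi27l2a, at 81.5% (others 95.6% to 97.5%), and for Rtp4, at 44.5% (others 63.2% to 65.0%).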

How the results depend on the processing

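Of 35 calls of a gene in whole samples or a type, 21 passed under every setting run: Bst2, Ifi27l2a and Rtp4 in whole samples, CD8 T, CD4 T and B cells and monocytes and macrophages, Ifi27l2a, Rtp4 and Ifitm3 in neutrophils, and Ifi44 in whole samples, CD8 T cells and monocytes and macrophages. Among the 21, Ifi44 in CD8 T cells and Rtp4 in B cells entered the test through their iKO level alone. The replicate block made 12 further calls, given beside each result, and lost none. Those calls rest on a pairing by number that the correlations between samples do not single out.

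The number of the 10 genes called higher moved by over 1.5 times with a change of setting in CD4 T cells, cDC2 and mature dendritic cells, and on leaving out 1 sample also in regulatory T cells and neutrophils. Without the low-count filter it was 7 in CD4 T cells, 5 in cDC2 and 8 in mature dendritic cells. With the replicate block it was 4 in cDC2 and 4 in mature dendritic cells, with DESeq2 4 and 3, with Leiden clusters 7 in cDC2, and with the stricter gate 2 in mature dendritic cells. Leaving out 1 sample gave 4 to 5 in whole samples, 4 to 7 in CD8 T, 5 to 7 in CD4 T, 0 to 4 in regulatory T and 3 to 4 in B cells, 4 to 6 in monocytes and macrophages, 3 to 6 in neutrophils, 0 to 4 in cDC2 and 0 to 5 in mature dendritic cells. With 1 sample left out or no filter, genes untested in the main fit could enter through their iKO level, as in CD4 T cells. The other interferon-induced genes called were, without the filter, 33 in regulatory T cells, 26 in B cells, 28 in cDC2 and 40 in mature dendritic cells, and with 1 sample left out 16 to 33 in CD4 T and 1 to 24 in regulatory T cells, 12 to 48 in monocytes and macrophages, 0 to 6 in cDC2 and 0 to 30 in mature dendritic cells.

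For the difference between types, 8 of the 10 genes passed without the filter (4.65% of all genes) and 2 with DESeq2-type size factors (1.65%). For CD8 T cells against monocytes and macrophages 1 passed without the filter (1.63% of all genes), and for neutrophils 4 without the filter (0.792%) and 1 with those size factors (0.381%). Leaving out 1 sample gave 0 to 1 over all types (0.413% to 2.44% of all genes) and for neutrophils (0.0577% to 0.806%). Without thinning, 54 of 80 share tests had an adjusted p under 0.05.

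Signs turned for these results, none of which was called in its main test. CD8 T cell Ifitm2 was 0.043 without the filter, 0.0093 with the replicate block, 0.044 without doublet removal and 0.13 with the stricter gate (-0.19 to 0.21 with 1 sample left out), and Ifitm1 0.23 with Leiden clusters and 0.14 with the stricter gate (-0.25 to 0.12). CD4 T cell Ifitm2 was 0.20 with Leiden clusters and Ifitm1 ran from -0.47 to 1.29 with 1 sample left out. Regulatory T cell Ifitm3 was 0.32 without doublet removal, 0.065 with Leiden clusters and 0.32 with the stricter gate (-0.54 to 0.28), and Ifitm1 ran from -3.39 to 0.18. B cell Ifitm2 was 0.0017 with DESeq2, 0.21 without doublet removal, 0.26 with Leiden clusters and 0.0055 with the stricter gate (-0.83 to 0.20). B cell Ifitm1 was 0.010 without the filter, 0.33 with DESeq2, 0.016 with the stricter cell filter, 0.52 with Leiden clusters and 0.71 with the stricter gate (-1.65 to 0.75). In cDC2, Rsad2 was -0.0087 with the stricter cell filter and ran from -0.36 to 0.83 with 1 sample left out, Cmpk2 from -0.10 to 0.91 and Ifitm6 from -0.053 to 0.25. Whole-sample Ifitm2 ran from -0.25 to 0.089. Control levels against monocytes and macrophages ran from -0.12 to 0.065 for Bst2 and from -0.0031 to 0.61 for Ifitm6 in cDC2, and from -2.26 to 0.40 for Ifi44 in regulatory T cells. The neutrophil Ifitm2 share differed by 1.27 percentage points at 1000 UMIs, 1.06 at 3000 and 1.4 without thinning (-2.44 to 3.89 with 1 sample left out). The causes were not tested.

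Over all genes, the 340, 283, 117, 141, 5 and 10 calls in whole samples, CD8 T cells, regulatory T cells, neutrophils, cDC2 and mature dendritic cells became 1381, 463, 180, 222, 51 and 105 with DESeq2 and 708, 695, 233, 273, 83 and 89 with the replicate block, and the 985 in monocytes and macrophages became 1720 with DESeq2. Without the filter, CD4 T cells had 300 calls against 163, regulatory T cells 479, B cells 145 against 94, neutrophils 423 and both dendritic types 261. Leiden clusters gave 316 in cDC2 and 3 in mature dendritic cells, the stricter gate 45 and 50-cell profiles 0 in mature dendritic cells, DESeq2-type size factors 5 there, and keeping doublets 70 in regulatory T cells. cDC2 could not be fitted with the stricter gate, and sample 1 of the iKO never entered it. Depth limits the small gates: Ifi44 had 1 UMI in all control B cells.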
